A study of Mus musculus with 12 samples.

Results

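The endothelial and vascular growth factor genes are 38 mouse genes that encode Vegf ligands and their receptors, the angiopoietin and Tie proteins, apelin and its receptor, junction and surface proteins of the vessel wall, and the transcription factors of endothelial and early blood cells. They were chosen by name from this knowledge of their roles and not by their values. The Affymetrix MOE430 2.0 array reads all 38 of them, with 66 probe sets that carry a single gene symbol, among 18193 such genes and 45037 probe sets in all. Each of 12 arrays was hybridized with RNA of 1 embryonic pancreas, with 2 wildtype and 4 β-catenin KO pancreata on each of 2 days, E14.5 and E16.5. The KO pancreata were Pdx1Cre/+; beta-catenin flox/flox, and came from matings of Pdx1Cre/+; beta-catenin flox/+ mice. Which Cre and floxed alleles the wildtype embryos carried is not stated in the labels. The Pdx1 promoter drives Cre in the pancreatic epithelium, where the study considers mosaic Cre expression likely, and the endothelial cells of a KO pancreas are not themselves the targeted cells and the array reads them together with all other cells of the organ. In RNA from a whole organ, a change in the number of endothelial cells and a change in their RNA per cell cannot be told apart.

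As background, Vegfa, Vegfb and Vegfc are secreted ligands that bind the receptor tyrosine kinases encoded by Kdr, Flt1 and Flt4 on endothelial cells. Angiopoietins act through the Tek receptor, which Tie1 and the phosphatase encoded by Ptprb modulate. In the embryonic pancreas, vessels grow within the mesenchyme around the epithelial buds, and endothelial cells are known as a source of signals to the epithelium. Transcription factors of the SoxF group (Sox7, Sox17, Sox18) and of the Ets group (Erg, Fli1, Ets1) set up and keep the endothelial programme, and Tal1, Lyl1 and Gata2 act in both endothelial and blood cell lineages.

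The value of every probe set is a ratio of its signal to the mean of the 2 wildtype pancreata of the same day, so 1 is that day's wildtype mean and the 2 wildtype ratios always average 1. A log2 fold change below is the mean log2 ratio of the 4 KO minus that of the 2 wildtype pancreata, with its standard error (SE), tested with limma. Adjusted p-values are Benjamini-Hochberg values taken over the full set of 45037. How abundant a transcript is, and whether it rises from E14.5 to E16.5, cannot be read from such ratios. Each array stands for a separate embryo, but which embryos shared a litter is not stated. The p-values rest on the spread between pancreata of the same day and genotype, pooled over all 12 arrays. The probe sets of the 8 defining endothelial markers, Pecam1, Cdh5, Kdr, Tie1, Tek, Esam, Cldn5 and Emcn, all gave values, but ratios do not show whether a marker is present or absent. For Ctnnb1, the targeted gene, the 3 probe sets gave mean KO ratios of 0.841 to 1.21 at E14.5 and 0.678 to 0.961 at E16.5 and none passed (adjusted p = 0.152 to 0.920). Whether these probe sets read the deleted exons is not known, so they do not check the labels. Acinar markers were far lower in the E16.5 KO pancreata, with median log2 ratios over 9 genes of -3.99 to -1.52, against -1.25 to 0.61 in the E14.5 KO pancreata.

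Most vascular genes were slightly higher in the KO pancreata on both days, and almost no single probe set passed. With 1 probe set per gene, chosen by its name, 30 of 38 genes had a log2 fold change above 0 at E14.5 (78.9%) and 31 of 38 did at E16.5 (81.6%). Over all probe sets tested these shares were 55.4% and 56.1%. The 38 genes had a median log2 fold change of 0.13 on the earlier day and 0.16 on the later, beside medians of 0.02 and 0.03 over all probe sets. The E16.5 median was 0.06 without KO_541L, 0.29 without KO_591D and 0.10 after quantile normalization. At E14.5, 0 of 66 probe sets passed the adjusted p of 0.05, on a background of 0.00222% of all probe sets called higher and 0.00888% called lower, and 3 had an unadjusted p under 0.05 as higher and 0 as lower (4.55% and 0%, against 2.34% and 4.52% of all probe sets). At E16.5, 1 of 66 rose and 0 fell (1.52% and 0%, against 0.802% and 1.82% of all probe sets). Of the 66, 15 were higher at E16.5 and 0 lower with an unadjusted p below 0.05 (22.7% and 0%, against 8.48% and 8.16%).

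**Figure D1:**
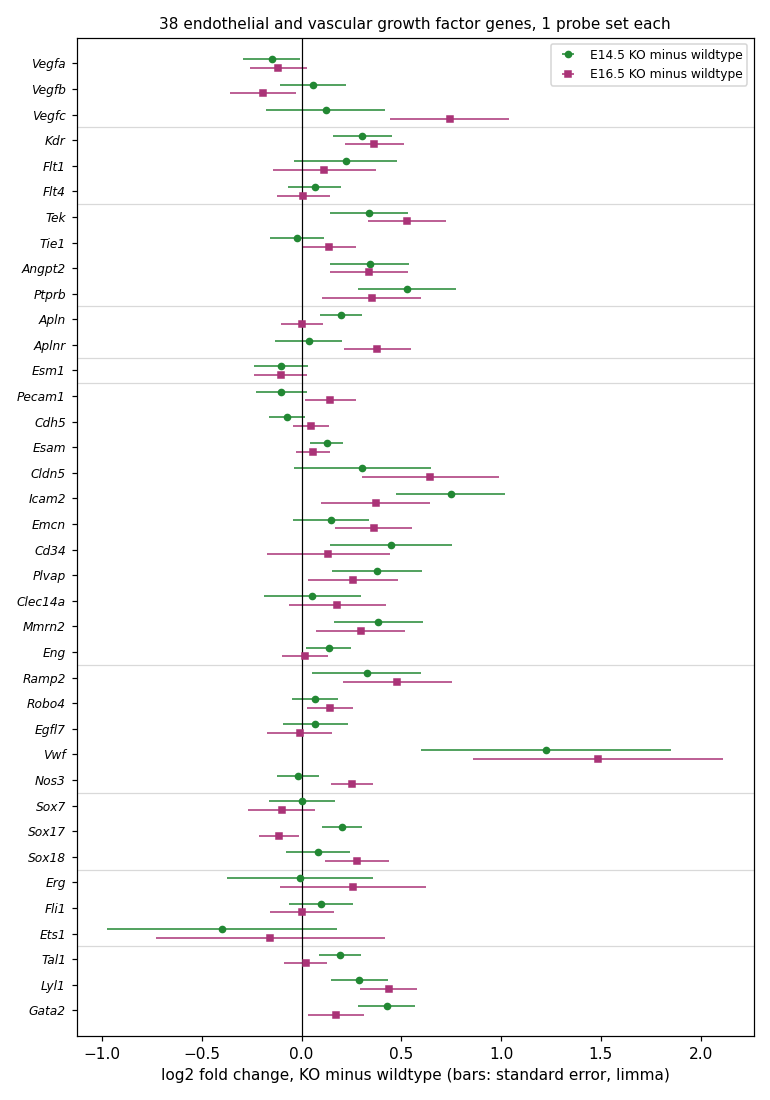
Log2 fold change, KO minus wildtype, of the 38 genes on 1 probe set each, with SE bars from limma, in circles for E14.5 and squares for E16.5, ordered by role. Most points lie right of 0 on both days (30 and 31 of 38), and Vwf lies farthest right with the widest bars.

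A stricter view is the count of genes for which every KO pancreas exceeded both wildtype pancreata of its day. This held for 9 of 38 genes at E14.5 (23.7%, against 8.17% of all probe sets) and for 5 of 38 at E16.5 (13.2%, against 14.5%). Without KO_615A the E14.5 count was 16 of 38, but the share over all probe sets without it was not computed. That share cannot fall when fewer KO pancreata are required, so this count has no background to be read against. At E14.5, 1 gene, Vegfa, lay below both wildtype pancreata in every KO (2.63%, against 8.06%), and at E16.5 none of 38 did (against 11.1%). The E16.5 share of genes above both wildtype pancreata is near its background and says nothing particular about the vascular genes. A single KO pancreas bore on it, KO_591D. It gave the lowest of the 4 KO ratios for 24 of 38 genes (63.2%, against 24.3% of all probe sets). Without it, 17 of 38 genes lay above both wildtype pancreata in all 3 KO (44.7%, against 20.6%). KO_591D was singled out by its low ratios in these same genes, so leaving it out favours their count. The gap to the background is therefore no support for a rise of the vascular genes.

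**Figure D2:**
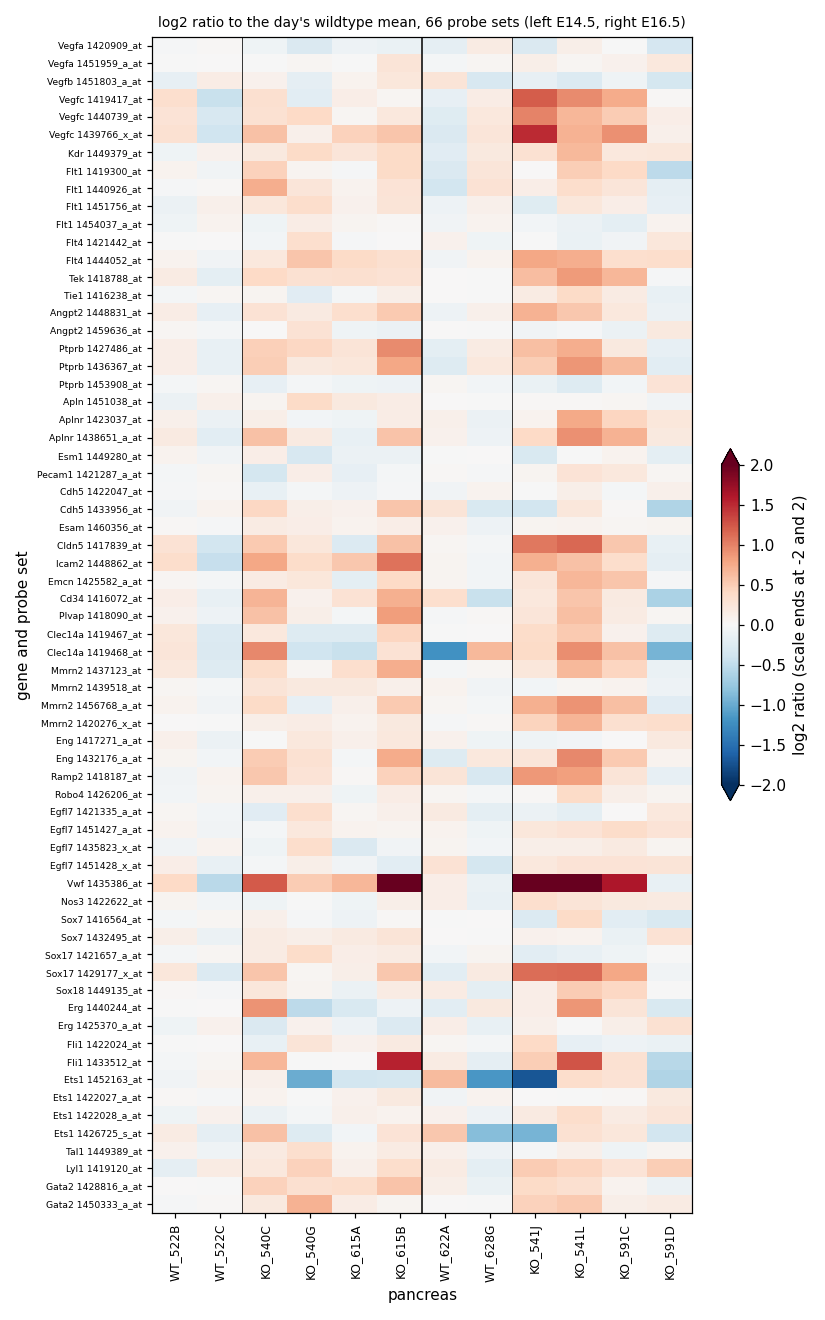
Log2 ratio to the day's wildtype mean of all 66 probe sets (rows, grouped by gene and role) in the 12 pancreata (columns, E14.5 left and E16.5 right), in red above 0 and blue below 0, with the scale ending at -2 and 2. Rows of Vegfc, Tek, Cldn5, Vwf and Sox17 (1429177_x_at) are red in KO_541J, KO_541L and KO_591C and pale in KO_591D, and several genes have a red and a pale row.

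Sequence before the transcript starts was looked up because most of these genes lay slightly above the wildtype. RefSeq windows for assembly GRCm38.p6 matched 21 of the 38 genes, with 28 windows, each the 250 bases before a transcript start in the table. An Ets core (AGGAAG or CGGAAG, either strand) was in 11 of 28 windows (39.3%), against 39.2% of 32851 windows of all genes. The Sox core ACAAT was in 7 of 28 (25%, against 27.7%), and a Gata core (AGATAA or TGATAA) was in 4 of 28 (14.3%, against 16.6%). No core was more frequent before these genes than before genes at large by more than 1 percentage point. The windows of Tek, Lyl1 and Vegfc are shown because these 3 genes had among the smallest p-values at E16.5. Ets and Sox cores are in capitals, and a match is only a match of letters. Tek lies at chr4:94739039-94739288, Lyl1 at chr8:84701207-84701456 and Vegfc at chr8:54077282-54077531, all on the + strand. Of the Tek window 203 bases, and of the Lyl1 window 34, lie within the gene as annotated from its first start, at positions 94739086 and 84701423, and none of the Vegfc window does.
Tek: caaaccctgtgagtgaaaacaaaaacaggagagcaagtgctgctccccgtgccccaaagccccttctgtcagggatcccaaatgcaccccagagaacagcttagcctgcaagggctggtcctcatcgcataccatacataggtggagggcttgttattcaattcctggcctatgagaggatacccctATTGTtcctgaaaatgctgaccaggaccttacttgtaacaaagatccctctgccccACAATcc
Lyl1: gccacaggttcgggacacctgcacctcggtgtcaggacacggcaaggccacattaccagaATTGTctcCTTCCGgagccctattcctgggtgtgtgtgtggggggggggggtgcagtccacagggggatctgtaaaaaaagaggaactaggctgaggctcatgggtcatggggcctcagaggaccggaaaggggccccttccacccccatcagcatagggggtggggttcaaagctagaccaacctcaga
Vegfc: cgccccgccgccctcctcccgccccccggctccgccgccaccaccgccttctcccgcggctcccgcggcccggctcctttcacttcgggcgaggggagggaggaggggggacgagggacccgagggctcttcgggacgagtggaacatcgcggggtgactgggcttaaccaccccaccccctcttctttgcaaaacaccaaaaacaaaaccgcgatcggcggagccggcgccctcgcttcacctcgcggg
The Tek window holds 2 Sox cores and no Ets core, and the Lyl1 window holds 1 of each. The Vegfc window holds neither and is 71.6% G or C, against 51.2% for Tek.

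Among the Vegf ligands, Vegfc stood apart from Vegfa and Vegfb at E16.5. Vegfc, the growth factor best known for lymphatic vessel growth, had ratios of 2.32, 1.93, 1.68 and 1.01 in KO_541J, KO_541L, KO_591C and KO_591D, beside 0.894 and 1.11 in the wildtype pancreata (1419417_at). The first 3 lay above both wildtype pancreata and KO_591D lay between them. The log2 fold change was 0.74 (SE 0.30), with an unadjusted p of 0.0291 and an adjusted p of 0.229, so it did not pass. On the other 2 Vegfc probe sets the same 4 KO pancreata had ratios of 2.00, 1.58, 1.43 and 1.10 (1440739_at, log2 fold change 0.60, SE 0.23, adjusted p = 0.208) and 2.80, 1.61, 1.88 and 1.08 (1439766_x_at, 0.82, SE 0.32, adjusted p = 0.213). All 3 probe sets placed KO_591D lowest. At E14.5 the KO ratios of 1419417_at were 1.25, 0.860, 1.09 and 1.02, within the wildtype pair at 1.27 and 0.732. On 1440739_at they were 1.24, 1.32, 1.02 and 1.15 against 1.20 and 0.797 (log2 fold change 0.27), and on 1439766_x_at 1.50, 1.08, 1.38 and 1.47 against 1.24 and 0.759 (0.47). On these probe sets 2 and 3 of the 4 KO lay above both wildtype pancreata. On 1419417_at the E16.5 effect exceeded the E14.5 effect by 0.62 (SE 0.42) on the log2 scale, a difference that did not pass either (unadjusted p = 0.167, adjusted p = 0.702). On the other 2 probe sets the difference was 0.33 (SE 0.32) and 0.35 (SE 0.45), and neither passed.

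Vegfa, the main ligand for blood vessel growth, was at or a little below the wildtype mean on its chosen probe set (1420909_at). Its ratios at E14.5 were 0.941, 0.821, 0.930 and 0.914 in the KO and 0.983 and 1.02 in the wildtype pancreata. At E16.5 they were 0.821, 1.08, 0.997 and 0.793 in the KO against 0.883 and 1.12. The groups were apart at E14.5 by a narrow gap and overlapped at E16.5, and the log2 fold changes were -0.15 and -0.12 (SE 0.14 for each, adjusted p = 0.924 and 0.777). On the other Vegfa probe set (1451959_a_at) the KO averaged 1.05 ± 0.0935 (SD, n = 4) on the earlier day and 1.08 ± 0.0549 on the later. The 2 probe sets therefore lay on opposite sides of 1 on both days. Vegfb, a ligand of Flt1, had E14.5 ratios of 1.06, 0.882, 1.05 and 1.17 in the KO against 0.893 and 1.11 in the wildtype, and E16.5 ratios of 0.888, 0.824, 0.940 and 0.787 against 1.20 and 0.804. All but KO_591D lay within the E16.5 wildtype pair, and the log2 fold changes were 0.06 and -0.19 (SE 0.16 for each, adjusted p = 0.983 and 0.649).

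Kdr and a probe set of Flt4 were above both wildtype pancreata in every KO on both days. Kdr encodes the main signalling receptor for Vegfa. Its E14.5 ratios were 1.15, 1.30, 1.18 and 1.30 in the KO and 0.940 and 1.06 in the wildtype pancreata, and its E16.5 ratios were 1.24, 1.57, 1.15 and 1.17 against 0.859 and 1.14. The lowest E16.5 KO ratio was just above the higher wildtype ratio. The log2 fold changes were 0.30 and 0.36 (SE 0.15 for each, adjusted p = 0.746 and 0.235), and neither passed. Flt4, the receptor of Vegfc, was read in 2 ways. On 1444052_at the ratios were 1.15, 1.48, 1.30 and 1.24 in the E14.5 KO and 1.72, 1.66, 1.27 and 1.28 in the E16.5 KO pancreata, beside wildtype ratios of 0.952 to 1.05 on both days. No KO pancreas overlapped a wildtype pancreas, and the log2 fold changes were 0.37 (SE 0.15, adjusted p = 0.677) and 0.55 (SE 0.15, adjusted p = 0.0756). On 1421442_at the Flt4 ratios were 0.958, 1.26, 0.987 and 1.01 in the E14.5 KO and 0.993, 0.916, 0.950 and 1.18 in the E16.5 KO, with wildtype ratios of 0.938 to 1.06. Here the groups overlapped and the log2 fold changes were 0.07 and 0.01 (SE 0.13 for each, adjusted p = 0.976 and 0.988). Flt1, a Vegf receptor that also traps ligand, had E14.5 ratios of 1.37, 1.04, 0.983 and 1.31 in the KO against 1.05 and 0.955, and E16.5 ratios of 1.0, 1.40, 1.31 and 0.696 against 0.818 and 1.18 (1419300_at). The groups overlapped on both days, with log2 fold changes of 0.22 and 0.11 (SE 0.26 for each, adjusted p = 0.946 and 0.901). On the other 3 Flt1 probe sets the log2 fold changes ran from 0.04 to 0.33 at E14.5 and from -0.08 to 0.17 at E16.5, and none passed.

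**Figure D3:**
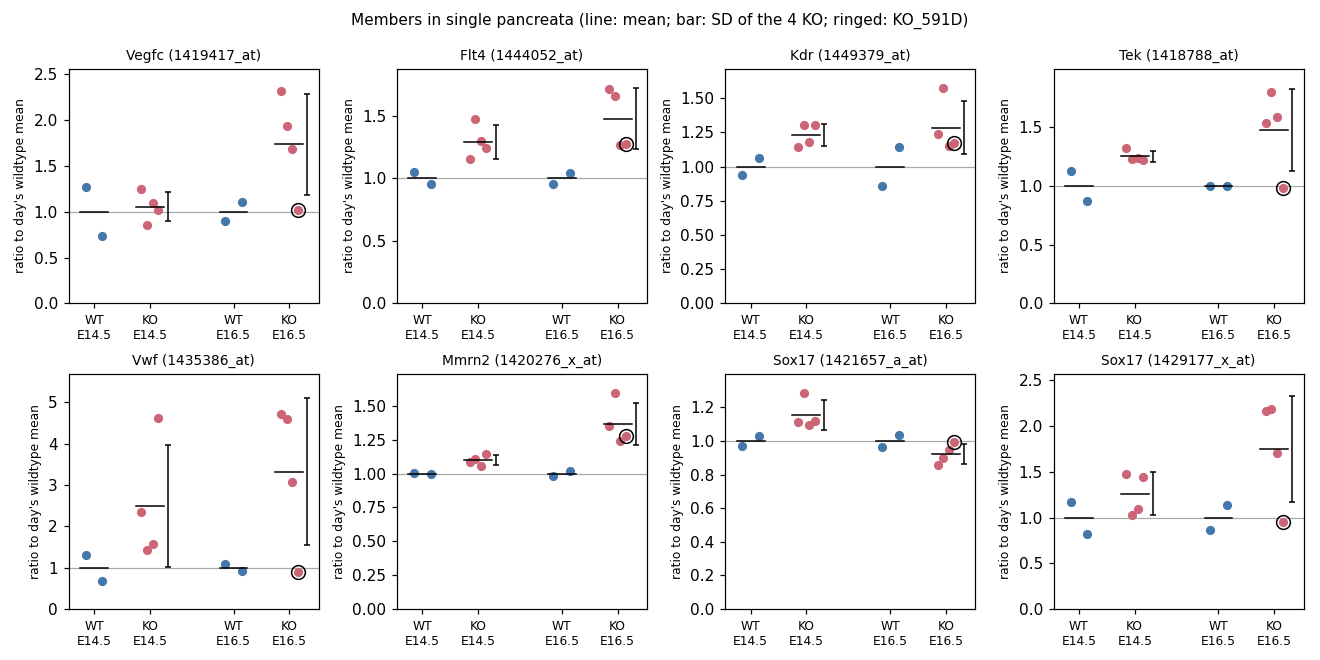
Ratio to the day's wildtype mean in each pancreas for 8 probe sets, with wildtype in blue and KO in red, a line at each group mean, a bar of 1 SD beside the 4 KO, a grey line at 1 and a ring around KO_591D. At E16.5 the ring lies at 0.905 to 1.01 for Vegfc, Tek, Vwf and both Sox17 probe sets, and at 1.17 to 1.28 for Kdr, Mmrn2 and Flt4.

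Of the 4 angiopoietin and Tie genes, 3 had log2 fold changes above 0 at E14.5 and all 4 at E16.5. Over all probe sets these shares were 55.4% and 56.1%, so counts over 4 genes say little. Tek, the angiopoietin receptor, had E14.5 ratios of 1.32, 1.23, 1.24 and 1.22 in the KO, closely grouped above the wildtype pair at 1.13 and 0.873. At E16.5 its ratios were 1.54, 1.80, 1.59 and 0.981 in KO_541J, KO_541L, KO_591C and KO_591D, while both wildtype pancreata were at 1.0. KO_591D was thus the only KO at or below wildtype. The log2 fold changes were 0.34 and 0.53 on the 2 days (SE 0.20 for each, adjusted p = 0.814 and 0.192). Ptprb, the vascular phosphatase that dampens Tek, had E14.5 ratios of 1.38, 1.33, 1.20 and 1.92 in the KO against 1.09 and 0.905 (1427486_at), with no overlap, a log2 fold change of 0.53 (SE 0.25) and an adjusted p of 0.736. At E16.5 its KO ratios were 1.52, 1.66, 1.15 and 0.888 against 0.874 and 1.13, so KO_591D lay within the wildtype pair (log2 fold change 0.35, SE 0.25, adjusted p = 0.554). The other Ptprb probe sets differed from each other. On 1453908_at the E14.5 KO ratios were 0.889, 0.978, 0.947 and 0.931 against 0.975 and 1.02, and the log2 fold changes were -0.10 and -0.04 on the 2 days, while on 1436367_at they were 0.43 and 0.47, and none passed. Angpt2, a context-dependent ligand of Tek, averaged 1.26 ± 0.129 (SD, n = 4) and 1.29 ± 0.310 on the 2 days, and Tie1 averaged 0.988 ± 0.0964 and 1.11 ± 0.162. Neither passed on either day. Apln and its receptor gene Aplnr, are a pair that acts in sprouting vessels. Apln averaged 1.15 ± 0.113 and 1.0 ± 0.0325, and Aplnr (1423037_at) 1.03 ± 0.0824 and 1.32 ± 0.281. On the other Aplnr probe set (1438651_a_at) the E16.5 ratios were 1.31, 1.89, 1.62 and 1.14 in the KO against 1.07 and 0.934, all above both wildtype pancreata. The E16.5 log2 fold changes of Aplnr were 0.38 (1423037_at, SE 0.17, adjusted p = 0.283) and 0.55 (1438651_a_at, SE 0.24, adjusted p = 0.260), and neither passed. Esm1, a tip cell gene, was at 0.935 ± 0.120 and 0.934 ± 0.109.

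The single call among the 66 probe sets belonged to Mmrn2, which encodes a multimerin of the endothelial extracellular matrix. On 1420276_x_at its E16.5 ratios were 1.35, 1.59, 1.24 and 1.27 in the KO and 0.982 and 1.02 in the wildtype pancreata. No KO overlapped the wildtype, and Mmrn2 rose by a log2 fold change of 0.44 (SE 0.11, adjusted p = 0.0491). At E14.5 the KO ratios of this probe set were 1.09, 1.11, 1.06 and 1.14 against 1.0 and 0.996 (log2 fold change 0.13, SE 0.11, adjusted p = 0.898). The call lies close to its limit, was kept in 4 of 19 other settings and is on a probe set whose name marks probes shared with other sequences. The other 3 Mmrn2 probe sets had E16.5 log2 fold changes of 0.30 (1437123_at), -0.01 (1439518_at) and 0.50 (1456768_a_at), and none passed. On 1439518_at the E14.5 ratios were 1.19, 1.14, 1.15 and 1.08 in the KO against 1.02 and 0.977 in the wildtype (log2 fold change 0.19, SE 0.09, adjusted p = 0.745).

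Junction and surface genes differed in how far the KO departed from the wildtype. Icam2, an adhesion molecule that endothelial cells carry constitutively, had the smallest p of this group at E14.5. Its ratios were 1.72, 1.29, 1.45 and 2.12 in the KO and 1.27 and 0.728 in the wildtype, so the lowest KO was barely above the higher wildtype (log2 fold change 0.75, SE 0.27, unadjusted p = 0.0190, adjusted p = 0.641). At E16.5 they were 1.64, 1.50, 1.28 and 0.887 against 1.04 and 0.959, with KO_591D below both (0.37, SE 0.27, adjusted p = 0.580). Pecam1 and Cdh5 encode adhesion molecules of the endothelial junction that are used to mark endothelium, and on their chosen probe sets both had means near 1. Pecam1 had E14.5 ratios of 0.785, 1.10, 0.893 and 0.977 in the KO against 0.969 and 1.03, and E16.5 ratios of 1.04, 1.21, 1.15 and 1.03 against 1.02 and 0.984. Its KO lay on both sides of the wildtype pair at E14.5 and just above it at E16.5 (log2 fold changes -0.10 and 0.14, SE 0.13 for each, adjusted p = 0.951 and 0.666). Cdh5 had E14.5 ratios of 0.904, 0.971, 0.936 and 0.989 against 0.982 and 1.02, and E16.5 ratios of 0.998, 1.08, 0.977 and 1.08 against 0.948 and 1.05 (1422047_at). The groups overlapped on both days (log2 fold changes -0.07 and 0.05, SE 0.09 for each, adjusted p = 0.946 and 0.873). The other Cdh5 probe set (1433956_at) had E14.5 ratios of 1.34, 1.08, 1.06 and 1.46 against 0.950 and 1.05, with all 4 KO above both wildtype pancreata. Its log2 fold changes were 0.29 and -0.15 (adjusted p = 0.899 and 0.832).

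The remaining genes of this group are given by their means. Cldn5, a tight junction gene, averaged 1.23 ± 0.307 (SD, n = 4) on the earlier day and 1.66 ± 0.607 on the later. Emcn, an endothelial sialomucin, averaged 1.12 ± 0.186 and 1.30 ± 0.270. Cd34, a surface marker shared with blood progenitors, averaged 1.38 ± 0.283 and 1.10 ± 0.339. Plvap, which encodes a protein of endothelial fenestrae, averaged 1.34 ± 0.382 and 1.21 ± 0.211. Clec14a (1419467_at) averaged 1.04 ± 0.252 and 1.16 ± 0.262, Eng (1417271_a_at), a co-receptor for Tgfβ ligands, 1.10 ± 0.0760 and 1.01 ± 0.0884, and Esam 1.09 ± 0.0298 and 1.04 ± 0.0109. None of these 7 passed on either day. On these probe sets Plvap had the widest SD of the 7 at E14.5 and Cldn5 at E16.5. The other Eng probe set (1432176_a_at) had E14.5 ratios of 1.43, 1.24, 0.970 and 1.67 against 1.04 and 0.959. Its E16.5 ratios were 1.18, 1.94, 1.44 and 1.05 against 0.840 and 1.16. The other Clec14a probe set (1419468_at) had E16.5 ratios of 1.31, 1.90, 1.49 and 0.528 in the KO, within a wide wildtype range except for KO_541L (0.431 and 1.57). Neither passed on either day.

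Among receptors and secreted proteins, Vwf had the largest and most variable ratios of all 38 genes. Vwf encodes von Willebrand factor, a clotting protein stored in endothelial cells and platelets. It is described here after its values were seen. Its E14.5 ratios were 2.34, 1.42, 1.58 and 4.63 in the KO and 1.31 and 0.687 in the wildtype pancreata, and its E16.5 ratios were 4.71, 4.60, 3.07 and 0.905 against 1.09 and 0.909. Every E14.5 KO exceeded both wildtype pancreata, and at E16.5 the KO pancreata were high except KO_591D, which lay just under the lower wildtype. With log2 fold changes of 1.22 and 1.48 (SE 0.63 for each) neither day passed (adjusted p = 0.766 and 0.255). Over 8 megakaryocyte and platelet markers the median log2 ratio was -0.06 to 0.25 in the E14.5 KO and 0.17 to 0.23 in the E16.5 KO, KO_591D included, and 0 of 8 passed. Pf4, a platelet chemokine of that list named after its values were seen, had E14.5 ratios of 1.86, 1.99, 1.32 and 2.08 in the KO against 1.12 and 0.884. Its E16.5 ratios were 1.83, 3.04, 1.42 and, in KO_591D, 0.997 against 1.14 and 0.857 (adjusted p = 0.677 and 0.299 on the 2 days). The rest of the list did not all rise with it. Itga2b had E14.5 KO ratios of 1.01, 0.994, 0.831 and 0.916 against 0.875 and 1.12. Gp9 had E16.5 KO ratios of 0.819, 0.910, 0.934 and 0.993 against 1.02 and 0.983. Of the 8, 6 had log2 fold changes above 0 on each day (against 55.4% and 56.1% of all probe sets), with medians of 0.05 and 0.21. The part of platelets in the Vwf ratios was not tested. Egfl7, a secreted endothelial protein, had E16.5 ratios of 1.17, 1.20, 1.29 and 1.21 in the KO against 1.05 and 0.947 on 1451427_a_at, without overlap (log2 fold change 0.28, SE 0.10, adjusted p = 0.160). The E14.5 ratios of that probe set were 0.970, 1.15, 1.05 and 1.04 against 1.05 and 0.951, and its chosen probe set, 1421335_a_at, had log2 fold changes of 0.07 and -0.01. Ramp2, a receptor component for adrenomedullin, averaged 1.26 ± 0.198 and 1.42 ± 0.453 on the 2 days. Robo4 averaged 1.05 ± 0.0767 and 1.11 ± 0.130, and Nos3, the endothelial nitric oxide synthase, 0.990 ± 0.0654 and 1.18 ± 0.0605. At E16.5 all 4 KO ratios of Nos3 lay above both wildtype pancreata, yet its adjusted p was 0.256.

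On the chosen probe sets only Sox17 at E14.5 lay above both wildtype pancreata in every KO, and none of the SoxF genes passed. Sox17 had E14.5 ratios of 1.11, 1.29, 1.09 and 1.12 in the KO against 0.968 and 1.03 in the wildtype, and E16.5 ratios of 0.860, 0.899, 0.947 and 0.997 against 0.964 and 1.04 (1421657_a_at). The KO was above the wildtype pair at E14.5 and at or below it at E16.5, with log2 fold changes of 0.20 and -0.11 (SE 0.10 for each, adjusted p = 0.748 and 0.666). The difference between the days was -0.32 (SE 0.14), the only 1 of 66 with an unadjusted p under 0.05 (0.0457), and its adjusted p was 0.470. The other Sox17 probe set, 1429177_x_at, gave a different picture, chosen here after its values were seen. Its E16.5 ratios were 2.17, 2.19, 1.70 and 0.954 against 0.862 and 1.14, with only KO_591D inside the wildtype pair (log2 fold change 0.75, SE 0.31, adjusted p = 0.238). Sox7 (1416564_at) had E14.5 ratios of 1.07, 0.987, 0.935 and 1.02 against 0.975 and 1.02, and E16.5 ratios of 0.824, 1.31, 0.863 and 0.810 against 0.994 and 1.01. KO_541L was high and the other 3 KO were low at E16.5, and the log2 fold changes were 0.00 and -0.10 (SE 0.17 for each, adjusted p = 1.0 and 0.849). On its other probe set (1432495_at) all 4 KO lay above both wildtype pancreata at E14.5, and the log2 fold changes were 0.19 and 0.08. Sox18 had E14.5 ratios of 1.17, 1.04, 0.925 and 1.12 against 1.02 and 0.983, and E16.5 ratios of 1.10, 1.43, 1.34 and 0.995 against 1.12 and 0.875. The groups overlapped on both days (log2 fold changes 0.08 and 0.28, SE 0.16 for each, adjusted p = 0.973 and 0.436).

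Of the Ets genes, Erg and Ets1 varied widely between pancreata of a group. Erg (1440244_at) had E14.5 ratios of 1.87, 0.693, 0.808 and 0.933 in the KO while both wildtype pancreata were at 1.0, and E16.5 ratios of 1.09, 1.83, 1.20 and 0.813 against 0.860 and 1.14. A single KO was high on each day, KO_540C at E14.5 and KO_541L at E16.5 (log2 fold changes -0.01 and 0.26, SE 0.37 for each, adjusted p = 1.0 and 0.821). Fli1 (1422024_at) had E14.5 ratios of 0.907, 1.20, 1.06 and 1.13 against 0.990 and 1.01, and E16.5 ratios of 1.32, 0.891, 0.935 and 0.913 against 1.03 and 0.970. Again 1 KO stood above the rest at E16.5, here KO_541J (log2 fold changes 0.10 and 0.00, SE 0.16 for each, adjusted p = 0.966 and 0.999). On the Fli1 probe set 1433512_at the E14.5 ratios were 1.58, 0.990, 1.01 and 2.90 against 0.972 and 1.03, and the E16.5 ratios were 1.41, 2.38, 1.24 and 0.684 against 1.12 and 0.884. Here KO_615B and KO_541L were highest (log2 fold changes 0.55 and 0.39, adjusted p = 0.910 and 0.775). Ets1 (1452163_at) had the lowest log2 fold change of the 38 genes at E14.5, -0.40 with an SE of 0.57, and its wildtype pair at E16.5, at 1.55 and 0.447, spread as widely as the KO pancreata. None of the 8 Ets probe sets passed on either day.

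All 3 blood and endothelial factors had log2 fold changes above 0 on both days, Tal1 close to 0 at E16.5, and none passed. Beside 55.4% and 56.1% of all probe sets above 0 on the 2 days, a count over 3 genes says little. Lyl1 had E14.5 ratios of 1.15, 1.38, 1.07 and 1.27 in the KO against 0.885 and 1.11, and E16.5 ratios of 1.43, 1.34, 1.20 and 1.41 against 1.12 and 0.878. Every E16.5 KO lay above both wildtype pancreata, KO_591D among the highest (log2 fold changes 0.29 and 0.44, SE 0.14 for each, adjusted p = 0.751 and 0.139). Gata2 (1428816_a_at) had the smallest p of all 66 probe sets at E14.5, with ratios of 1.37, 1.25, 1.28 and 1.48 in the KO against 1.0 and 0.997. The KO was clear of the wildtype pair, yet the adjusted p was 0.607 (log2 fold change 0.43, SE 0.14, unadjusted p = 0.0112). At E16.5 the Gata2 ratios were 1.30, 1.25, 1.05 and 0.927 against 1.09 and 0.910, and the log2 fold change was 0.17 (SE 0.14, adjusted p = 0.635). On the other Gata2 probe set (1450333_a_at) every KO lay above both wildtype pancreata on both days, without passing. Its E14.5 ratios were 1.14, 1.62, 1.11 and 1.04 against 0.980 and 1.02. The E16.5 ratios were 1.38, 1.43, 1.09 and 1.12 against 1.01 and 0.995. Tal1 had E14.5 ratios of 1.13, 1.26, 1.06 and 1.12 against 1.06 and 0.939, and E16.5 ratios of 0.986, 1.07, 0.946 and 1.04 against 1.07 and 0.928. It was at the upper edge of the wildtype pair or above it at E14.5 and close to the pair at E16.5 (log2 fold changes 0.19 and 0.02, SE 0.11 for each, adjusted p = 0.795 and 0.964). Mast cells also use Gata2, and Cpa3, a mast cell protease, had E14.5 ratios of 5.97, 7.75, 5.42 and 5.05 in the KO against 1.22 and 0.782 (log2 fold change 2.61, SE 0.40, adjusted p = 0.102). Over all 10 mast cell markers 9 had log2 fold changes above 0 at E14.5 and 8 at E16.5 (against 55.4% and 56.1% of all probe sets), and 0 passed. The medians over the list ran from -0.01 to 0.42 and from 0.03 to 0.26 in single KO pancreata. Cpa3 had the highest E14.5 ratios of the list. Ms4a2 was at 0.824, 1.14, 0.922 and 0.905 against 0.987 and 1.01, and Tpsb2 at 0.998, 1.01, 0.944 and 1.08 against 1.02 and 0.985. What part mast cells have in the Gata2 and Lyl1 ratios was not tested.

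Leaving out KO_591D changed the number of E16.5 calls more than leaving out any other pancreas. Without it 8 of 66 probe sets passed, all higher (12.1%, against 3.49% of all probe sets called higher and 2.86% called lower). They are named here after their values were seen, and names ending in _x_at mark probes shared with other sequences. Tek rose by 0.71 on the log2 scale (SE 0.12, adjusted p = 0.00770) and Vwf by 2.03 (SE 0.45, adjusted p = 0.0255), with a mean Vwf ratio of 4.13 ± 0.920 (SD, n = 3). Vegfc rose by 0.98 (1419417_at, SE 0.23, adjusted p = 0.0340) and by 1.05 (1439766_x_at, SE 0.27, adjusted p = 0.0467), and its receptor gene Flt4 by 0.62 (1444052_at, SE 0.15, adjusted p = 0.0346). Sox17 rose by 1.02 (1429177_x_at, adjusted p = 0.0210) and Mmrn2 by 0.47 (1420276_x_at, adjusted p = 0.0299) and 0.74 (1456768_a_at, adjusted p = 0.0368). KO_591D was singled out by its low ratios in these same genes, so these calls and their share are no support for a rise. No reason to set KO_591D aside is given in the labels, so the values with all 4 KO remain the result. Nor was KO_591D low on the array as a whole, since it gave the highest of the 4 KO ratios for 44.3% of all probe sets, and for 10.5% of the 38 genes. The opposite pancreas was KO_541L, the highest of the 4 KO for 22 of 38 genes (57.9%, against 20.5% of all probe sets).

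Mesenchyme, islet, mesothelium and acinar markers had their E16.5 extremes in the same 2 pancreata as the vascular genes. The median log2 ratio of the 38 genes was 0.15 in KO_541J, 0.41 in KO_541L, 0.19 in KO_591C and -0.09 in KO_591D. The median of 10 mesenchyme markers was 0.75, 1.30, 0.30 and 0.22, and that of 9 acinar markers was -2.65, -3.99, -1.87 and -1.52. KO_541L thus had the highest vascular and mesenchyme medians and the lowest acinar median, and KO_591D the reverse. The median of 7 epithelial markers was -1.08, -0.94, -0.43 and -0.17, nearest to wildtype in KO_591D and lowest in KO_541J. The islet and mesothelium medians were also highest in KO_541L (0.89 and 0.62) and lowest in KO_591D (0.002 and -0.20). Some lists had other extremes. The lymphatic and the neuron and glia medians were highest in KO_541J (1.41 and 1.86), and the mural and leukocyte medians were lowest in KO_591C (0.11 and -0.07). At E14.5 the medians of the 38 genes were 0.18, 0.13, 0.03 and 0.17 in KO_540C, KO_540G, KO_615A and KO_615B. KO_615A gave the highest KO ratio for 0 of 38 genes (against 19.4% of all probe sets) and KO_615B for 18 of 38 (47.4%, against 15.8%). Mesenchyme medians were 0.45, 0.46, 0.18 and 0.39, and acinar medians -0.06, 0.12, 0.61 and -1.25, so KO_615A was lowest for vascular and mesenchyme genes and highest for acinar genes. The part of tissue makeup in the vascular ratios was not tested.

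**Figure D4:**
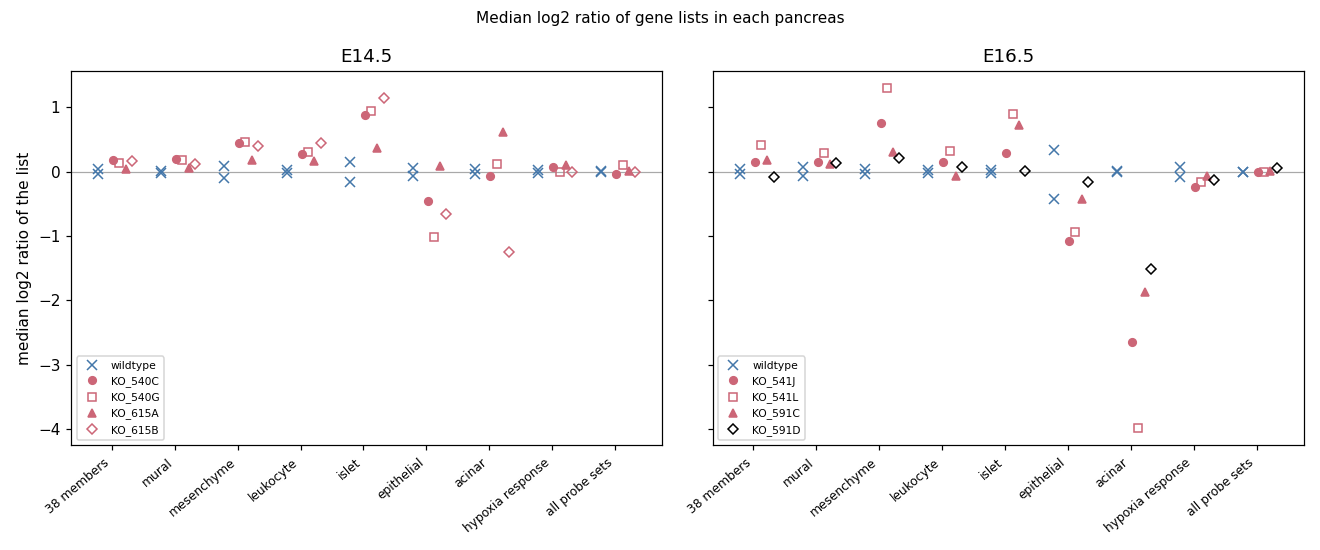
Median log2 ratio over the genes of a list, for every pancreas, E14.5 left and E16.5 right, with crosses for wildtype and 1 symbol for each KO pancreas (KO_591D in black). At E16.5 KO_541L is highest for the 38 genes (0.41) and mesenchyme (1.30) and lowest for acinar genes (-3.99), and KO_591D lies lowest for the 38 genes (-0.09).

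Marker lists of neighbouring cell types give the setting for these ratios, beside 55.4% and 56.1% of all probe sets above 0 on the 2 days and 0.802% called higher and 1.82% called lower at E16.5. Of 12 mural cell markers, which label the pericytes and smooth muscle around vessels, 9 had log2 fold changes above 0 on each day, 0 passed, and the medians were 0.10 and 0.23. Of 5 measured lymphatic markers, Flt4 among them, all 5 were above 0 on both days with medians of 0.55 and 0.81, and 0 passed. In single KO pancreata the lymphatic median was 0.12 to 0.93 at E14.5. At E16.5 it was 1.41, 1.10, 0.09 and 0.31 in KO_541J, KO_541L, KO_591C and KO_591D. KO_541J and KO_541L also had the highest ratios of Vegfc on 1419417_at and 1440739_at and of Flt4 on 1444052_at. On Vegfc 1439766_x_at, however, KO_541L (1.61) lay below KO_591C (1.88). On Flt4 1421442_at, the probe set used in this list, KO_541L was the lowest KO (0.916). The defining lymphatic factor Prox1 had log2 fold changes of 0.04 and 0.09. On the 2 days 10 and 9 of 10 mesenchyme markers were above 0, with medians of 0.32 and 0.61. Of 12 leukocyte markers 12 and 8 were above 0 (medians 0.27 and 0.05), and of 8 islet markers 7 and 7 (0.81 and 0.44). Of 7 epithelial markers 0 were above 0 on either day (-0.59 and -0.53), and of 9 acinar markers 4 and 0 (-0.07 and -2.40). Mesenchyme and islet medians thus exceeded those of the 38 genes (0.13 and 0.16) on both days. Of 10 mesenchyme markers, Lum and Col3a1, genes of the fibrous matrix, rose at E16.5, to ratios of 2.88 ± 0.700 (adjusted p = 0.0160) and 2.15 ± 0.671 (adjusted p = 0.0488). Of 12 leukocyte markers, Csf1r rose to 2.39 ± 0.776 (adjusted p = 0.0383) and C1qa fell to 0.494 ± 0.0441 (adjusted p = 0.00532) at E16.5. Of 9 measured acinar markers, 5 fell at E16.5 (Cela2a, Cela3b, Prss2, Cel and Rnase1), Cela3b to 0.117 ± 0.0614 (adjusted p = 0.00199). Nefl, 1 of 6 measured markers of peripheral neurons and glia, rose (adjusted p = 0.0488). Ins2, 1 of 8 measured islet markers, had E14.5 ratios of 6.0, 5.80, 3.14 and 3.93 against 0.943 and 1.06 in the wildtype without passing. No epithelial, islet, mesothelial, erythroid or platelet marker passed on either day. The calls of Csf1r, Col3a1 and Nefl lie close to the limit, and no marker call was followed singly in the other settings.

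Other genes of vascular signalling, from a list of 40 with 39 measured, had medians close to those of the 38 genes. At E14.5, 30 of 39 had log2 fold changes above 0 with a median of 0.14 and 0 passed, and at E16.5, 29 of 39 did with a median of 0.17. Of all probe sets 55.4% and 56.1% were above 0 on the 2 days. At an unadjusted p under 0.05, 13 were higher and 1 lower at E16.5, against 8.48% and 8.16% of all probe sets. Unc5b, a guidance receptor of endothelial cells, was the 1 gene of 39 that passed at E16.5 (against 0.802% of all probe sets called higher and 1.82% called lower). Its E16.5 ratios were 1.38, 1.50, 1.28 and 1.26 in the KO against 0.982 and 1.02 in the wildtype, and it rose by 0.43 on the log2 scale (SE 0.10, adjusted p = 0.0430). As for Mmrn2 (1420276_x_at), the KO did not overlap the wildtype and KO_591D was raised with the others. The Unc5b call also lies close to its limit, and it was not followed singly in the other settings. Nrp1, a co-receptor for Vegf, and Vegfd, the ligand closest to Vegfc, are added after their values were seen. Nrp1 averaged 1.45 ± 0.211 and 1.51 ± 0.374 on the 2 days, and Vegfd 1.96 ± 0.530 and 2.62 ± 1.20. Neither passed on either day (adjusted p = 0.179 to 0.696).

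Genes of the response to low oxygen, a known inducer of Vegfa, moved in both directions. Of 14 measured, 0 passed at E14.5 (against 0.00222% of all probe sets called higher and 0.00888% called lower). At E16.5, 3 fell and 0 rose (against 1.82% and 0.802% of all probe sets). At such shares 0 higher calls among 14 genes say little. Of the 14, 8 had log2 fold changes above 0 at E14.5 and 6 at E16.5 (against 55.4% and 56.1% of all probe sets). Ndrg1, a stress-response gene, had E16.5 ratios of 0.425, 0.334, 0.429 and 0.494 in the KO against 0.931 and 1.07 (log2 fold change -1.26, SE 0.14, adjusted p = 0.00135). Every KO lay far below the wildtype pair. Egln3, an oxygen-sensing hydroxylase, fell at E16.5 to 0.572 ± 0.0694 (adjusted p = 0.0123) and Pfkfb3, a regulator of glycolysis, to 0.526 ± 0.128 (adjusted p = 0.0206). At E14.5 the Egln3 KO ratios were 1.14, 1.38, 1.24 and 1.11 against 0.913 and 1.09, all above both wildtype pancreata. Adm and Bnip3, added after their values were seen, were also above both in every E14.5 KO. Adm was at 1.32, 1.55, 1.34 and 1.29 against 0.883 and 1.12, and Bnip3 at 1.30, 1.25, 1.29 and 1.29 against 1.11 and 0.890. Hif1a and Epas1 are added after their values were seen. Their E16.5 KO ratios were 1.55, 1.56, 1.49 and 1.09 against 0.935 and 1.06, and 1.77, 2.19, 1.81 and 1.14 against 0.824 and 1.18. Neither passed. At E14.5 Hif1a was lower, at 0.893, 0.575, 0.786 and 0.737 against 1.02 and 0.979. At an unadjusted p under 0.05, 2 of the 14 were higher and 1 lower at E14.5 (against 2.34% and 4.52% of all probe sets), with a median of 0.05. At E16.5, 2 were higher and 6 lower (against 8.48% and 8.16%), and the median over the list was -0.09. Acinar markers were lower in the same pancreata, and their part in these ratios was not tested.

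The KO effect was not shown to differ between the days for any vascular gene. Of 66 probe sets, 0 passed the test of the difference, on a background of 0.0755% called with a larger effect at E16.5 and 0.273% with a smaller one. At an unadjusted p under 0.05, 0 were larger and 1 smaller at E16.5, against 5.32% and 5.04%. Of the 38 genes, 19 had a larger effect at E16.5 (50%, against 52.3% of all probe sets). The differences ran from -0.45 to 0.62 on the log2 scale, with a median of 0.02 over the 38 genes beside 0.01 over all probe sets. With 2 wildtype pancreata per day the median SE of such a difference was 0.23, so differences of that size could not be detected.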

How the data were processed

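RNA of 12 single embryonic pancreata was amplified in 2 rounds and hybridized to Affymetrix MOE430 2.0 arrays. The authors ran RMA within GeneSpring and deposited each signal as a linear ratio to the mean of the day's 2 wildtype arrays. No other values were used, and the background correction and a filter on dim probe sets could not be varied on such ratios. Of 45101 probe sets, 64 controls were left out. Gene symbols came from the platform annotation, in which 34945 probe sets have 1 symbol, 932 several (2 of them with a symbol of the 38 genes) and 9160 none, and only probe sets with 1 symbol are named.

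A linear model with 4 groups was fitted to log2 ratios in limma 3.58.1, R 4.3.3 (8 residual degrees of freedom) without a block, with contrasts for KO against wildtype on each day and for the difference between them, two-sided, with Benjamini-Hochberg adjustment over 45037 probe sets and a limit of 0.05. The fit was tested on simulated data. A gene with several probe sets is represented by the one chosen by its name (_at, then _a_at, then _s_at or _x_at, then the lowest number). Values in each pancreas are given for probe sets past the limit, the 8 smallest p of each day and 15 genes listed by name. Of other lists, genes past the limit and the 2 smallest p of each day are named. The genes and lists were chosen with earlier results of these data known, so no p over a list is given. The alternatives were other variance models, normalizations and t-tests, array weights, a random block (statmod 1.5.0) and leaving out each array. Windows before transcript starts were read from RefSeq (GRCm38.p6) and figures drawn with matplotlib 3.10.9. The number of arrays limits the precision.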

Additional observations from a re-analysis of the deposited data

Results flagged for a closer look

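A single pancreas standing apart from the other 3 KO pancreata of its group was sought with Dixon's gap ratio and its critical value for groups of 4 in 82 groups, and 6 were found. Chance flags about 1 in 20 groups, or 4.1 of these 82. In KO_540G at E14.5, the Flt4 probe set 1421442_at was at a ratio of 1.26 against 0.958 to 1.01 in the other KO (gap 0.837), and the Sox17 probe set 1421657_a_at was at 1.29 against 1.09 to 1.12 (gap 0.881). In KO_541L at E16.5, Sox7 (1416564_at) was at 1.31 against 0.810 to 0.863 (gap 0.894). In KO_541J at E16.5, Fli1 (1422024_at) was at 1.32 against 0.891 to 0.935 (gap 0.896).

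Over lists of genes, the median log2 ratio of the 8 defining endothelial markers at E14.5 was -0.06 in KO_615A against 0.17 to 0.21 in the other KO pancreata (gap 0.859). The median of 8 megakaryocyte and platelet markers at E14.5 was 0.25 in KO_540G against -0.06 to -0.01 (gap 0.834).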

How the results depend on the processing

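At E14.5, 0 of 66 probe sets passed under each alternative except the methods' t-test without correction, which gave 7. At E16.5 the main count of 1 became 2 with array weights (Flt4 on 1444052_at joined, adjusted p = 0.0394) and 4 with the t-test without correction. It became 0 with a robust variance with trend, separate fits for the 2 days (6 arrays each), median centring, quantile normalization, probe sets ending in _x_at and _s_at left out, or the t-test with Benjamini-Hochberg adjustment. Leaving out each array in turn gave 0 to 8 calls at E16.5, 8 without KO_591D, 1 without KO_540G and 0 without any other. The call of Mmrn2 (1420276_x_at) was lost in 15 of 19 alternatives (adjusted p = 0.0299 to 0.355 over all 19), so it rests on the setting and on each of 10 arrays. Over all probe sets the E16.5 calls numbered 1182 in the main fit, 2380 with array weights and 2862 without KO_591D. They numbered 159 with separate fits for the 2 days, 86 with a robust variance with trend and 71 after quantile normalization. With the t-test and Benjamini-Hochberg adjustment they numbered 0, so the calls of genes on the other lists were lost there too. The test of the difference gave 0 calls throughout, on a main count of 1 probe set at an unadjusted p under 0.05. The cause of these changes was not tested.

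Genes above both wildtype pancreata in all KO numbered 9 to 16 at E14.5 when single arrays were left out (16 without KO_615A) and 5 to 17 at E16.5 (17 without KO_591D). No share over all probe sets was computed for the E14.5 counts with an array left out. The median log2 fold change of the 38 genes was 0.11 to 0.16 at E14.5 and 0.06 (without KO_541L) to 0.29 (without KO_591D) at E16.5 with an array left out, 0.10 at E16.5 after quantile normalization, and 0.19 and 0.24 with all probe sets of a gene averaged. Of 996 single fold changes recomputed, 942 kept their direction and their side of the limit, 34 changed sign without a call, 15 lost a call, 5 gained one, and 0 reversed a call. The number in an array's name as a random replicate block left the E16.5 count at 1 (consensus correlation -0.0876). No paired analysis was possible because no number is shared between the groups of a day.

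The pancreata are few, 2 wildtype a day, and probe sets of a gene often differ, as for Flt4, Sox17, Vegfa, Egfl7, Ptprb, Mmrn2, Gata2 and Eng. Dim probe sets could not be recognised in ratios.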
